A study of Mus musculus with 8 samples.

Results

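Adenylyl cyclases are the enzymes that make the second messenger cAMP from ATP. The 9 membrane-bound isoforms, Adcy1 to Adcy9, are described here in the anchorage dependent (AD) and anchorage independent (AI) phenotypes of Neuro2a, an established mouse neuroblastoma cell line derived from AJ mice. The isoforms were taken by gene symbol, and all 9 of them were measured, out of 19938 genes that have a transcript cluster with a single symbol. A transcript cluster is the set of probes that an Affymetrix mouse gene array holds for a gene. Each isoform had 1 such cluster, so mean brightness over the 8 arrays, the 1 measured value that the rule uses to choose among clusters of a gene, decided nothing here. RNA from 4 AD and 4 AI cultures was hybridized, 8 arrays in all. AD cells were untreated and grew attached in DMEM with 10% fetal bovine serum. AI cells were untreated tumorspheres, grown detached in a serum-free neural stem cell medium to which EGF (20 ng/ml), bFGF (10 ng/ml) and heparin (2 µg/ml) had been added. Attachment, serum and growth factors therefore change together and cannot be told apart. The labels call the replicates biological, whereas the methods speak of replicate hybridizations, so the p-values measure the spread between these arrays, which may be partly technical.

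Membrane-bound adenylyl cyclases are switched on by the stimulatory G protein subunit Gαs when a coupled receptor binds its ligand. The isoforms differ in what else they respond to. Adcy1, Adcy3 and Adcy8 are grouped as stimulated by calcium and calmodulin, Adcy2, Adcy4 and Adcy7 as stimulated by the Gβγ subunits that G proteins release, and Adcy5 and Adcy6 as inhibited by calcium. Adcy9 responds poorly to the plant compound forskolin and stands outside these classes. In neural cells cAMP acts through protein kinase A, Epac and ion channels, and is known for its part in neurite growth and in the differentiation of neuroblastoma cells.

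Of the 9 isoforms, Adcy7 differed strongly between the phenotypes. Its signal was 2.49-fold higher in AD cells (95% interval 2.25 to 2.75), with 6.65 ± 0.09 log2 against 5.33 ± 0.07 log2 in AI cells (SD, n = 4 each). Adcy7 is a Gβγ-stimulated isoform known for its abundance in blood cells and platelets. The 8 other isoforms differed by less than 1.5-fold, and their log2 ratios of AD over AI ranged from -0.19 for Adcy4 to 0.36 for Adcy3. The series' design text gives the thresholds used for a call, an adjusted p under 0.05 together with a change of 1.5-fold or more. By this rule 1 of the 9 isoforms was called, against 3.93% of all 35556 transcript clusters. It was higher in AD cells and none was lower, where 1.39% and 2.53% of all clusters were called higher and lower. Without a minimum fold, 3 isoforms passed the adjusted p of 0.05 in limma, against 18.1% of all clusters (8.50% higher and 9.62% lower in AD cells). Each of the 3 was higher in AD cells. They were Adcy7, Adcy3 and Adcy5. The same 3 were the isoforms whose AD and AI arrays did not overlap, as was the case for 22.1% of all clusters. The median log2 ratio of the 9 isoforms was 0.01, and the median of all clusters was near 0 (-0.00078).

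**Figure D1:**
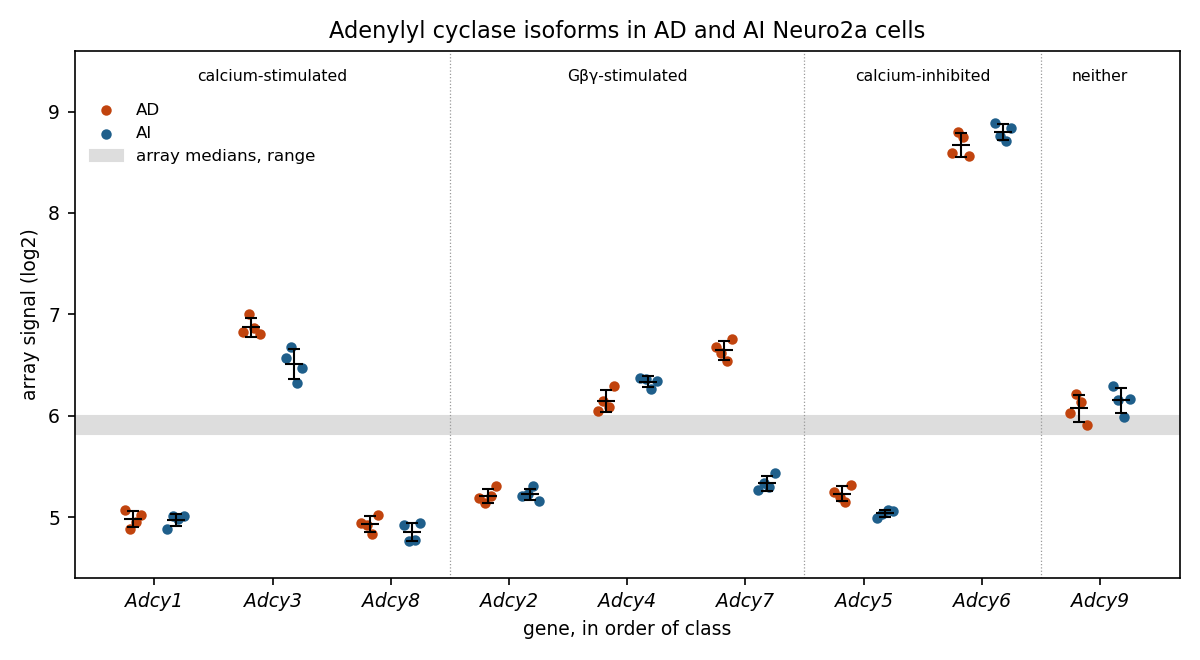
Array signal (log2, vertical axis) of the 9 adenylyl cyclase isoforms (horizontal axis, in order of class) in both phenotypes of Neuro2a. Dots are single arrays (4 AD and 4 AI), the black bars are means with SD, and the grey band is the range of the 8 array medians. Adcy7 lies at 6.54 to 6.76 in AD cells, above the band, and at 5.27 to 5.43 in AI cells, below it.

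The Gβγ-stimulated class held the called isoform, and its other members, Adcy2 and Adcy4, did not pass the test. Adcy7 read 6.68, 6.62, 6.54 and 6.76 log2 in AD replicates 1 to 4 and 5.27, 5.33, 5.29 and 5.43 log2 in AI replicates 1 to 4. The lowest AD array lay 1.11 log2 above the highest AI array, so the gap between the phenotypes was many times the spread within either. The log2 ratio was 1.32 (standard error 0.06, 95% interval 1.17 to 1.46). Adjusted over all clusters by the Benjamini-Hochberg method, its p in limma was 4.62e-06. Among all transcript clusters this was the 34th largest ratio toward AD cells. The exact permutation p, two-sided, was 0.0286, which is the smallest value possible with 4 arrays in each phenotype. In AI cells the Adcy7 signal fell below the median signal of every array, between the 31.9th and the 37.8th percentile of that array's clusters. The AI level is thus dim and the size of the ratio is not known exactly. With bulk RNA, fewer cells with the transcript and less transcript per cell cannot be told apart.

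Because Adcy7 was the isoform called, the sequence at its start sites is given. RefSeq (assembly GRCm38.p6) lists 3 start sites for Adcy7, and the windows run from 250 bases before to 50 bases after each. Adcy2, a member of the same class whose signal did not pass the test, is shown for comparison. Capitals mark each CG, the dinucleotide that is dense in CpG islands.
Adcy7 window 1, chr8:88282742-88283041, plus strand: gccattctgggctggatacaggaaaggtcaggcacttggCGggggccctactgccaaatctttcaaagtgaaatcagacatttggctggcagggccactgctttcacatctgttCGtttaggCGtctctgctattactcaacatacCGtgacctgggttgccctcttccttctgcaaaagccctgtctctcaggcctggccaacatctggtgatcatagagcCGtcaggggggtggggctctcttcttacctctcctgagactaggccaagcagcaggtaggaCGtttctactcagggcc
Adcy7 window 2, chr8:88288816-88289115, plus strand: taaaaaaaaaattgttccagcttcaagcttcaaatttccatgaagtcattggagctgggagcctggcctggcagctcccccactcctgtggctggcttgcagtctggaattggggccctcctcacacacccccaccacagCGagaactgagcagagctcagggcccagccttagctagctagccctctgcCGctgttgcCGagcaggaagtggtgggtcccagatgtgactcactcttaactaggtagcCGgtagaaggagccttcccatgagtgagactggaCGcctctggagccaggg
Adcy7 window 3, chr8:88293954-88294253, plus strand: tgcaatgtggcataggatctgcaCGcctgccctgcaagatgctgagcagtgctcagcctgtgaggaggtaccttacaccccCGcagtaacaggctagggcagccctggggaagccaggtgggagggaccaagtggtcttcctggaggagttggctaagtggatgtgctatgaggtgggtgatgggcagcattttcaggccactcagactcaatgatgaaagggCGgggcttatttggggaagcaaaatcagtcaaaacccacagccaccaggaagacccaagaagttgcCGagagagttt
Adcy2 window 1, chr13:68999492-68999791, minus strand: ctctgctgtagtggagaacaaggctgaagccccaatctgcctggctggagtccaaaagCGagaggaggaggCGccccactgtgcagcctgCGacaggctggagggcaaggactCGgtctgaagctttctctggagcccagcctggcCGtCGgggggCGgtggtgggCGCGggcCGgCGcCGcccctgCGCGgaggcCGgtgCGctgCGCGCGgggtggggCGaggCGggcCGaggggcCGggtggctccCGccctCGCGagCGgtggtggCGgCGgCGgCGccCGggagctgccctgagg
The Adcy7 windows held 6, 5 and 4 CG dinucleotides, at a G+C content of 54.7%, 57.0% and 55.7%. The Adcy2 window held 32 at 75.0%. The median window among 32851 in the mouse table held 7, at 52.7% G+C, and 47.9% of all windows held 6 or fewer, so the Adcy7 windows are ordinary for the genome and sparse for this family. Of the 9 isoforms, 7 were matched in this table, with 10 windows. Outside Adcy7, the windows held 37 CG for Adcy1, 33 and 7 for the start sites of Adcy3, 16 for Adcy4, 44 for Adcy5 and 42 for Adcy9. The core of the cAMP response element, TGACG on either strand, occurred in the first Adcy7 window and in the Adcy9 window, and in 20.8% of all windows. The E-box CACGTG, which reads the same on both strands and is the site of MYC and MAX, was in the Adcy1 window and in no Adcy7 window (7.15% of all windows). The GC box GGGCGG, on either strand, was in 6 of the 10 windows, the third Adcy7 window among them (35.7% of all windows).

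The other members of the Gβγ-stimulated class were not called. Adcy4, an isoform described in blood vessels and other peripheral tissues, read 6.05, 6.15, 6.09 and 6.29 log2 in AD cells and 6.37, 6.37, 6.26 and 6.34 log2 in AI cells. Its means lay toward AI cells, but AD replicate 4 reached into the AI range. The log2 ratio was -0.19 (95% interval -0.34 to -0.04, adjusted p = 0.0772 from limma). Without AD replicate 4 the ratio was -0.24 and the adjusted p 0.0141, still under 1.5-fold. Adcy2, a brain isoform that protein kinase C also activates, read 5.14 to 5.31 log2 in AD cells against 5.16 to 5.30 log2 in AI cells. The ranges of Adcy2 coincide, and its log2 ratio was -0.01 (95% interval -0.14 to 0.12, adjusted p = 0.925 from limma). All 8 arrays had Adcy2 below the array median, so that a difference in a dim signal may not have been detectable.

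Among the calcium-stimulated isoforms, Adcy3 was the one that passed the test, at less than 1.5-fold. Adcy3, the cyclase of olfactory neurons and of neuronal primary cilia, read 6.82, 7.01, 6.86 and 6.80 log2 in AD cells. In AI cells it read 6.57, 6.68, 6.32 and 6.47 log2. The phenotypes did not overlap, but the gap between the lowest AD and the highest AI array was only 0.12 log2. Adcy3 was 1.29-fold higher in AD cells (95% interval 1.13 to 1.47, log2 ratio 0.36 ± 0.08 SE, limma adjusted p = 0.0156). Its exact two-sided permutation p was 0.0286. Adcy1, a calcium- and calmodulin-activated isoform of neurons linked to learning, read 4.89 to 5.07 log2 in AD cells against 4.88 to 5.01 log2 in AI cells. Adcy8, the other neuronal isoform of this kind, read 4.84 to 5.02 log2 and 4.77 to 4.94 log2. Both lay below the median of every array in both phenotypes, and their AD and AI arrays overlapped. The log2 ratio was 0.01 for Adcy1 (95% interval -0.12 to 0.15, adjusted p = 0.926 from limma) and 0.08 for Adcy8 (95% interval -0.07 to 0.22, adjusted p = 0.491 from limma).

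Of the calcium-inhibited isoforms, Adcy5 passed the test at less than 1.5-fold and Adcy6 did not pass it. Adcy5, the main isoform of the striatum and one of those in the heart, read 5.25, 5.20, 5.15 and 5.32 log2 in AD cells and 4.99, 5.03, 5.07 and 5.06 log2 in AI cells. Its arrays did not overlap, by 0.08 log2. The ratio was 1.14-fold toward AD cells (95% interval 1.05 to 1.24, log2 ratio 0.19, adjusted p = 0.0405 from limma), with every array below its own median. Adcy5 kept an adjusted p under 0.05 when AD replicate 3 was left out (adjusted p = 0.0456) and lost it when any other array was (adjusted p = 0.0540 to 0.109), and also with the replicate number as a block (adjusted p = 0.102). Adcy6, a broadly expressed relative of Adcy5, read 8.59, 8.80, 8.75 and 8.56 log2 in AD cells and 8.88, 8.76, 8.71 and 8.84 log2 in AI cells. The AD and AI arrays of Adcy6 overlapped, and its log2 ratio was -0.12 (95% interval -0.29 to 0.04, adjusted p = 0.292 from limma). Of the 9 isoforms Adcy6 lay highest within its arrays, between the 77.8th and the 80.8th percentile, although probes of different genes bind with different strength and these positions do not rank the transcripts.

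Adcy9 was not called either. It read 6.03, 6.22, 6.13 and 5.91 log2 in AD cells and 6.29, 6.15, 5.99 and 6.17 log2 in AI cells, with wide overlap between the phenotypes. The log2 ratio was -0.08 (95% interval -0.27 to 0.11, adjusted p = 0.608 from limma). Adcy10, the soluble bicarbonate-sensing cyclase that lies outside the membrane-bound family and was named after its value was seen, read 4.53 to 4.72 log2 in AD cells against 4.47 to 4.61 log2 in AI cells (log2 ratio 0.05, adjusted p = 0.667 from limma), below the median of every array.

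**Figure D2:**
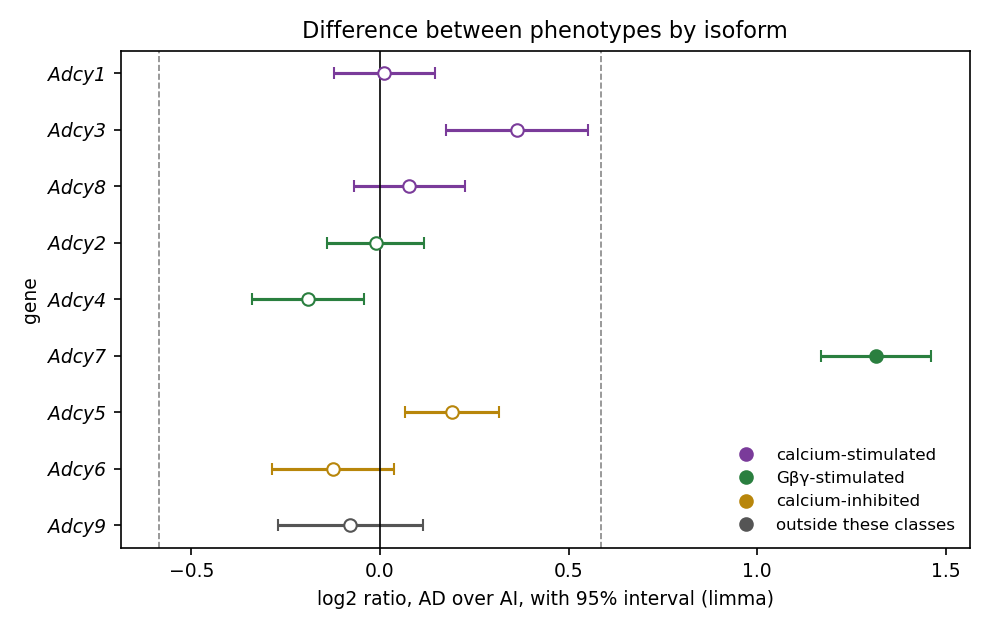
Log2 ratio of AD over AI (horizontal axis) for each isoform (vertical axis), with its 95% interval from limma and 4 arrays per phenotype. Colors give the class, the filled dot is the called isoform, and the dashed lines mark 1.5-fold in either direction. The interval of Adcy7, 1.17 to 1.46, lies beyond the line, and the intervals of the other isoforms lie between -0.34 and 0.55.

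By class, the median log2 ratio was 0.08 for the 3 calcium-stimulated isoforms, all positive, though Adcy1 and Adcy8 did not pass the test. It was -0.01 for the 3 Gβγ-stimulated isoforms, of which 1 was positive and 2 were negative. It was 0.03 for the 2 calcium-inhibited isoforms, with 1 of each sign. Without Adcy7 the other 8 isoforms were evenly split, 4 positive and 4 negative, and 49.8% of all clusters had a positive ratio. Within the Gβγ-stimulated class the 95% interval of Adcy7 did not overlap those of Adcy2 and Adcy4.

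The isoforms also varied between replicate arrays, and many had an AD extreme in AD replicate 4, in opposite directions. How many of all clusters did so was not counted. In AD replicate 4, Adcy2, Adcy4, Adcy5, Adcy7 and Adcy8 each had their highest AD value, and Adcy3, Adcy6 and Adcy9 their lowest. AD replicate 2 held the highest AD values of Adcy3, Adcy6 and Adcy9. Over all clusters, AD replicate 4 had the narrowest spread of signals of the 8 arrays (SD 1.99 log2) and AD replicate 2 the widest (2.08 log2). Among AI arrays, replicate 3 held the lowest values of Adcy3, Adcy4, Adcy6 and Adcy9, and it had the highest median of all arrays (5.99 log2) and the narrowest spread among the AI arrays (2.01 log2). The part of these array properties in the isoform values was not tested. For Adcy7 the deviations from the phenotype mean were at most 0.11 log2, against a difference of 1.32 log2 between the phenotypes. Without AD replicate 4 its ratio was 1.28, and over all single arrays left out it ranged from 1.28 to 1.35.

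**Figure D3:**
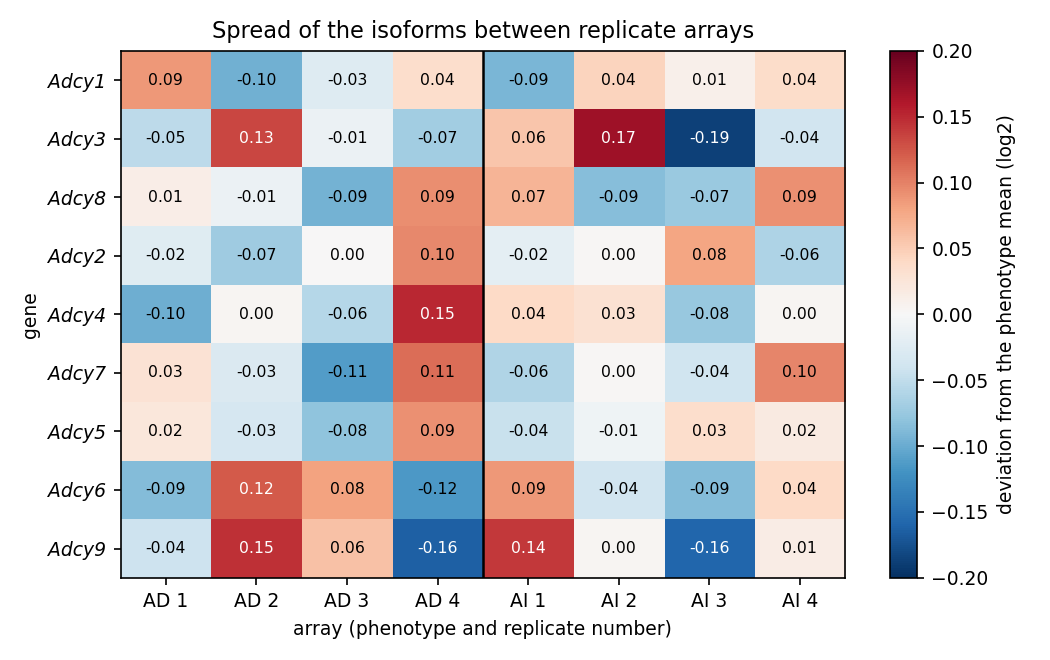
Deviation of each isoform (rows) from its phenotype mean in each of the 8 arrays (columns), in log2, printed in each cell and colored from blue (lower) to red (higher). In AD replicate 4, Adcy3, Adcy6 and Adcy9 lie lower by 0.07, 0.12 and 0.16 log2, and Adcy7 lies 0.11 log2 above its mean.

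The markers of the cell line were checked beside these values. Of 12 measured neuroblastoma and sympathoadrenal markers, 12 lay above the median of every array. Of these markers 4 (33.3%) were called higher in AD cells and none lower, against 2.02% and 2.40% of the 19938 genes, with the catecholamine enzyme gene Dbh at a log2 ratio of 3.01, the oncogene Mycn at 1.81 and the transcription factor gene Phox2a at 1.13. The fourth, the tyrosine hydroxylase gene Th, was named after its value was seen. Its log2 ratio of 0.60 lay just past 1.5-fold, and the count was 3 with array weights, without AD replicate 3 and without AI replicate 4. At any fold, 8 of the 12 markers had a limma adjusted p under 0.05 toward AD cells and 1 toward AI cells. Over all clusters these shares were 8.50% and 9.62%. The marker toward AI cells was Chgb, named after its value was seen, with a log2 ratio of -0.49 (limma adjusted p = 0.000204). The mean log2 signal of the 12 markers was 9.57 to 9.74 in AD arrays and 8.99 to 9.09 in AI arrays. Their part in the Adcy7 result was not tested. Macrophages and other leukocytes are rich in Adcy7, and their markers were therefore examined. None of 6 leukocyte markers was called, where 4.41% of all genes were, and all 6 (Ptprc, Cd68, Adgre1, Csf1r, Aif1 and Tyrobp) lay below the median of every array. Their mean was 4.96 to 5.14 log2 in AD arrays and 5.10 to 5.20 log2 in AI arrays. None of the 6 fibroblast, 6 endothelial and 4 measured Schwann cell and glial markers was called either. The mean of the fibroblast markers was 5.32 to 5.44 log2 in AD arrays and 5.30 to 5.37 log2 in AI arrays, with 4 of 6 below the median of every array. That of the endothelial markers was 5.34 to 5.51 and 5.40 to 5.48 log2, with 5 of 6 below, and that of the Schwann cell and glial markers was 5.90 to 6.10 and 6.03 to 6.08 log2, with 3 of 4 below. The fibroblast exceptions, named after their values were seen, were Pdgfra and Col1a1. Pdgfra lay above the array median in 4 AD and 3 AI arrays, and Col1a1 in 1 AD and 0 AI arrays. The endothelial and glial exceptions, also named after their values were seen, were the endothelial adhesion gene Pecam1 and the neuregulin receptor gene Erbb3. Both lay above the median of every array. Pecam1 had a log2 ratio of -0.18 (limma adjusted p = 0.360) and Erbb3 of -0.52 (limma adjusted p = 0.00170), under 1.5-fold and without overlap between the phenotypes.

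The genes whose signal followed Adcy7 most closely over the 8 arrays were Nsun3, a mitochondrial RNA methyltransferase gene, Crabp1, a retinoic acid binding protein gene, and Spice1, a centriole gene (Pearson r = 0.995, 0.994 and 0.993 across 8 arrays). These r values mostly restate the split between the phenotypes, which all 8 arrays share. The log2 ratio of Crabp1 was 1.70, and those of Nsun3 and Spice1 were 0.58 and 0.50, under 1.5-fold. For the deviations from the phenotype means, the closest were Tspoap1, Proz and Onecut1 (r = 0.994, 0.986 and 0.982 across 8 arrays). Tspoap1, Proz and Onecut1 lay below the median of every array and had log2 ratios of 0.05, 0.03 and 0.10. Both sets are the highest r values among 19937 genes over only 8 arrays, so they are no evidence of a link with Adcy7.

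Around the cyclases, 12 lists of genes of cAMP signaling were counted, among them 1 list of soluble and guanylyl cyclases. The guanylyl cyclases in that list make cGMP, and its 12 measured genes held 0 calls. Of all 153 listed genes 141 were measured, and 2 of them were called higher in AD cells, 11 lower and 128 were not called. This is 9.22% called, beside 4.41% of the 19938 genes (2.02% higher and 2.40% lower). The median log2 ratio of the 141 was 0.01. The calls lay among receptors, Gβγ subunits, phosphodiesterases and cAMP effectors. None of 8 protein kinase A genes, 8 CREB factors and coactivators, 12 A-kinase anchoring proteins and 20 CREB target genes was called (limma). The protein kinase A genes are those of its subunits and inhibitors, and the catalytic subunit gene Prkaca was not measured here. At any fold, where 18.1% of all clusters passed, 1 protein kinase A gene had an adjusted p under 0.05 toward AD cells and 1 toward AI cells, as was the case for the CREB factors. For the 12 anchoring proteins these numbers were 3 and 3, and for the 20 CREB targets 1 and 6.

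**Figure D4:**
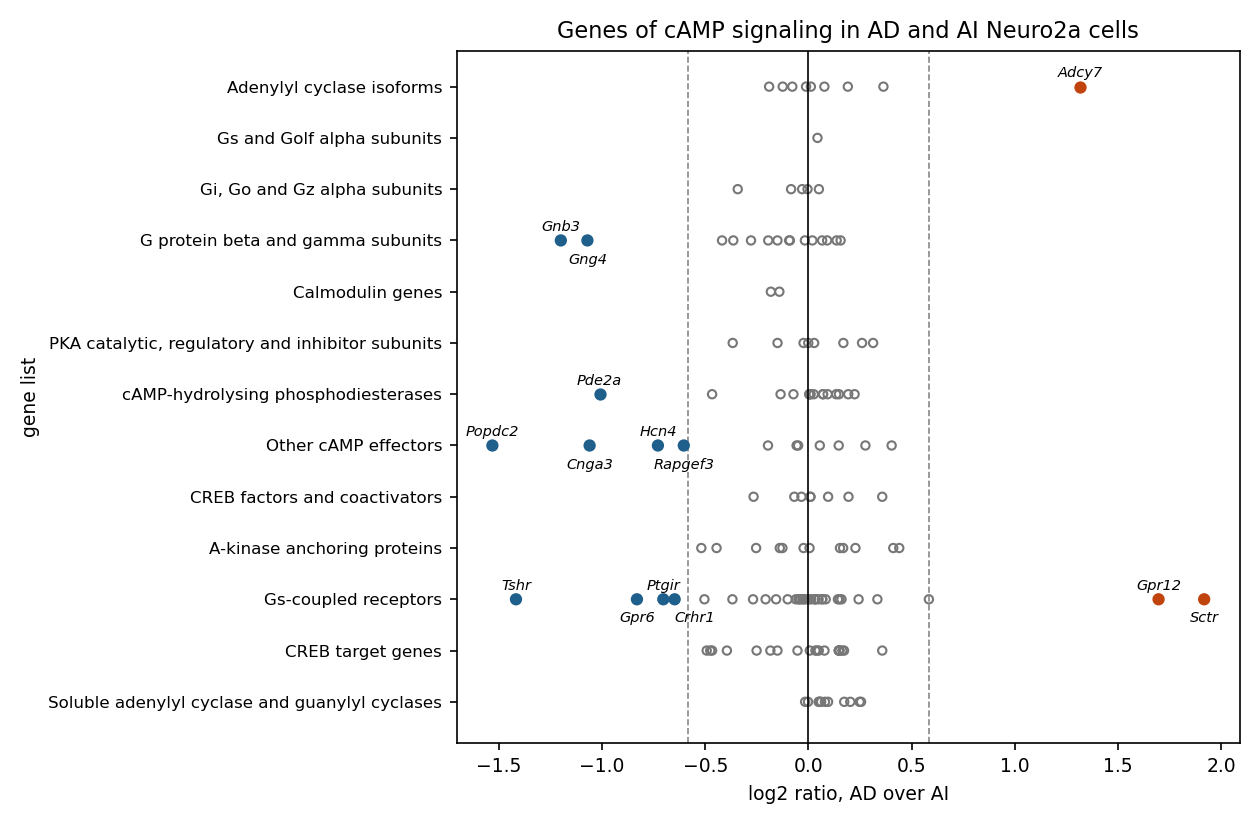
Log2 ratio of AD over AI (horizontal axis) for the 9 adenylyl cyclase isoforms and for the measured genes of 12 lists of cAMP signaling (rows). The lists include that of soluble and guanylyl cyclases. Each dot is a gene, filled and named where called, with red for higher and blue for lower in AD cells, and the dashed lines mark 1.5-fold. Adcy7, Sctr and Gpr12 are the called genes on the AD side, and 11 genes are called on the AI side.

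Receptors that couple to Gαs and so feed the cyclases were called in both directions. Of 34 measured, 2 were higher in AD cells, 4 were lower and 28 were not called. This is 17.6% called, beside 4.41% of the 19938 genes (2.02% higher and 2.40% lower). Sctr, the secretin receptor, read 9.70 to 9.85 log2 in AD cells against 7.76 to 7.97 log2 in AI cells. Gpr12, an orphan receptor that raises cAMP without added ligand, read 6.98 to 7.16 log2 in AD cells against 5.28 to 5.49 log2 in AI cells, the latter below the median of every array. Gpr12 was 3.24-fold higher in AD cells (log2 ratio 1.70 with a standard error of 0.07, limma adjusted p = 1.53e-06). Its close relative Gpr6 moved the other way, 1.78-fold higher in AI cells (6.32 ± 0.09 against 7.15 ± 0.05 log2, adjusted p = 4.80e-05 from limma). The third gene of that receptor group, Gpr3, had a log2 ratio of -0.50 (limma adjusted p = 0.000878), was under 1.5-fold, and was named after its value was seen. Tshr, the thyrotropin receptor, was 2.67-fold higher in AI cells, with AD arrays below the array median, and Ptgir, the prostacyclin receptor, was 1.63-fold higher. Crhr1, a receptor for corticotropin-releasing hormone named after its value was seen, had a log2 ratio of -0.65. Htr6, also named after its value was seen, lay just under 1.5-fold toward AD cells (log2 ratio 0.58, limma adjusted p = 0.000223). The count of called receptors depends on the cutoff. It was 7 with array weights, with quantile normalization, and without AD replicate 1, AD replicate 2, AI replicate 2 or AI replicate 4.

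The G protein subunits that act on the cyclases were mostly not called. Among the α subunits that inhibit or do not stimulate them, Gnai1, Gnai2, Gnai3 and Gnaz had log2 ratios between -0.08 and 0.05. Gnao1, the abundant neuronal Gαo, was 1.27-fold higher in AI cells (log2 ratio -0.34, adjusted p = 0.00645 from limma), under 1.5-fold. Gnal, the stimulatory subunit of olfactory neurons, had 0.04 and a signal below the median of every array, and Gnas shares its cluster with another symbol and was not analysed here. Of 15 β and γ subunits, 2 were called, both lower in AD cells (13.3%, beside 2.40% of the 19938 genes called lower). At any fold, 5 of the 15 had a limma adjusted p under 0.05 toward AI cells and 0 toward AD cells. Over all clusters these shares were 9.62% and 8.50%. Gnb3, a β subunit known from cone photoreceptors, read 8.12 to 8.34 log2 in AD cells against 9.27 to 9.57 log2 in AI cells, and was 2.30-fold higher in AI cells (standard error 0.08 on the log2 scale, adjusted p = 2.56e-05 from limma). Gng4, a neuronal γ subunit, read 7.96 to 8.34 log2 in AD cells against 9.05 to 9.25 log2 in AI cells, a 2.10-fold difference. The Gβγ subunit genes that were called thus lay toward AI cells, and the Gβγ-stimulated cyclase gene that was called lay toward AD cells. The calmodulin gene Calm3 had a log2 ratio of -0.14 and Calm2 had -0.18 (adjusted p = 0.0525 from limma), while a second, dimmer cluster of Calm2 had 0.01.

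Genes that degrade or bind cAMP and were called were all lower in AD cells. Of 16 phosphodiesterases that hydrolyse cAMP, Pde2a, which cGMP activates, was called (6.25%, beside 4.41% of the 19938 genes). Its AD arrays read 5.40 to 5.53 log2, below the array median, and its AI arrays 6.31 to 6.59 log2. Pde2a was 2.02-fold higher in AI cells (adjusted p = 3.59e-05 from limma). The other 15 were not called. Of 11 measured genes for other proteins that bind cyclic nucleotides, 4 were called lower in AD cells (36.4%, beside 2.40% of all genes). The remaining 7 were not called. Popdc2, a Popeye domain protein of muscle membranes that binds cAMP, was 2.89-fold higher in AI cells (5.71 ± 0.05 against 7.24 ± 0.09 log2, adjusted p = 1.07e-06 from limma), with AD arrays below the array median. The cyclic nucleotide-gated channel subunit Cnga3 and the pacemaker channel Hcn4 were 2.08-fold and 1.66-fold higher in AI cells. Rapgef3, which encodes the cAMP-activated exchange factor Epac1 and was named after its value was seen, had a log2 ratio of -0.60 with a signal below the median of every array. It was not called with median centring, quantile normalization or array weights, nor without AD replicate 4. Of 12 genes of soluble and guanylyl cyclases, none was called, beside 4.41% of the 19938 genes. At any fold, 2 of the 12 had a limma adjusted p under 0.05 toward AD cells and 0 toward AI cells. Over all clusters these shares were 8.50% and 9.62%. The 2, named after their values were seen, were Gucy1a1 (log2 ratio 0.25, limma adjusted p = 0.00934) and Gucy1b1 (0.25, limma adjusted p = 0.0156).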

How the data were processed

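Total RNA of AD and AI Neuro2a cells (4 arrays each) was hybridized to Affymetrix mouse gene ST arrays. The values used are log2 signals of 35556 transcript clusters, deposited by the authors after GCRMA normalization. The submitters' processing notes name Partek 6.5. No values below this level were used, arrays give no counts, and the number of arrays limits the precision (array medians 5.82 to 5.99 log2). Clusters were named by the platform annotation. Of 21789 clusters with a single symbol, 21698 matched RefSeq (GRCm38.p6) by gene number.

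The phenotypes were tested in R 4.3.3 by limma 3.58.1 (eBayes, no covariate) on all clusters, with Benjamini-Hochberg adjustment over all of them. The script was tested on simulated data. Exact two-sided permutation tests and counts used Python 3.11.15. The isoforms and the gene lists were chosen with earlier results of these data known, so their p-values are no independent evidence. Named genes are the 9 isoforms, the 3 genes most like a called isoform by each of 2 measures of correlation, up to 3 called genes per list and direction with the largest change, and lists of 5 or fewer genes in full. Others are marked as named after their values were seen. Alternatives were quantile normalization, median centring, a filter on clusters below the 40th percentile, the methods' analysis of variance without moderation, trended and robust variance, array weights, a replicate block, other thresholds, the mean of a gene's clusters, and leaving out each array.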

Additional observations from a re-analysis of the deposited data

How the results depend on the processing

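Adcy7 was called, and was the isoform count of 1, in each of 16 refits, the 8 with an array left out included, with a log2 ratio from 1.28 (without AD replicate 4) to 1.39 (median centring). At any fold the count of isoforms was 3. Adcy3 kept an adjusted p under 0.05 in 16 of 16 refits (0.30 to 0.44), Adcy5 in 7 of 15 (0.16 to 0.27) and Adcy4 in 2 of 16, with array weights and without AD replicate 4. Isoforms near 0 changed sign. Adcy2 had 0.065 with median centring, 0.0052 with quantile normalization and -0.043 to 0.015 with an array left out (positive without AD replicate 2 or AI replicate 3). Adcy1 had -0.019 to 0.044 (negative without AD replicate 1 or AI replicate 1), and Adcy9 had 0.00040 with quantile normalization. Among other genes near 0, Gnai1 had 0.013 with array weights, 0.012 with quantile normalization, 0.072 with median centring and -0.049 to 0.041 with an array left out, Gnai2 had 0.046 with median centring, and Proz had -0.0026 to 0.057 with an array left out (negative without AD replicate 4). Nsun3 crossed 1.5-fold in 5 refits. Over all clusters, 1396 were called (64.5% lower in AD cells), 6444 at any fold, 254 at 2-fold and 1378 with median centring (47.0% lower in AD cells). Left-out arrays gave 1217 to 1636, and no other count of calls moved by over 1.5 times. With the replicate block, Adcy7 kept its log2 ratio of 1.32 and 1352 clusters were called. The replicate numbers gave no sign of a pairing. The deviations of same-numbered arrays correlated between -0.17 and 0.08, and 1 of 8 arrays correlated best with its own number. Array-wide differences also enter these deviations, so this check cannot exclude a pairing. Each isoform had 1 cluster, so averaging clusters left its ratio as it was. The refits of the list counts and of genes other than the isoforms were chosen after seeing the data. Signals below the array median limit what could be seen for Adcy1, Adcy2, Adcy5, Adcy8 and, in AI cells, Adcy7.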
